A study of Mus musculus with 24 samples.

Results

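The Krüppel-like factors (KLFs) described here are 10 genes, Klf2, Klf3, Klf4, Klf5, Klf6, Klf7, Klf9, Klf10, Klf13 and Klf15, followed through the differentiation of 3T3-L1 cells. They were found by their symbols among the 26995 genes of the deposited tables, and where a symbol had several 3′UTR entries, the one with most total reads on average across the 24 libraries stands for the gene. 3T3-L1 is a mouse embryonic fibroblast line that turns into fat cells after treatment with an inducing mix, here dexamethasone, 3-isobutyl-1-methylxanthine and insulin, followed from day 3 by medium with insulin only. Cells were collected at day −2, before induction, and at days 1, 3 and 7, either with the solvent DMSO or with 0.5 µM ML-792, an inhibitor of the SUMO-activating enzyme, and each of the 8 conditions has 3 replicate libraries, A, B and C. All 24 libraries, controls included, come from cells given 100 µM 4-thiouridine for 45 min, so that RNA made in that time carries T>C conversions in the sequenced reads. Each library thus gives a total count, called QuantSeq, and a count of reads with at least 1 conversion, called SLAMseq. All cells belong to 1 line, and how long the day −2 cultures labelled ML-792 had been exposed is not stated plainly in the sources used here.

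KLFs are zinc finger transcription factors that bind GC-rich sequences, above all GC boxes and CACCC boxes, and act as activators or repressors depending on the cofactors they recruit. In pre-adipocytes Klf2, Klf3 and Klf7 are known as brakes on differentiation, and Klf2 represses the promoter of Pparg, the master regulator of fat cells. Klf4, Klf5 and Klf6 belong to the early steps after induction, Klf9 binds the Pparg2 promoter in the middle of the programme, and Klf15 is a glucocorticoid-induced factor that activates Slc2a4, the gene of the insulin-dependent glucose transporter GLUT4. Klf10 was described as an early gene of TGF-β signalling, and Klf13 regulates Ccl5 in T cells and lies upstream of Pparg in fat cells.

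Because KLFs bind the GC and CACCC boxes of many promoters, their own promoters were searched for both motifs. The promoters of 6 members whose RNA moved during differentiation are shown, 250 bases before to 50 bases after the start site in the 5′ to 3′ direction of the gene, from RefSeq on GRCm38.p6. Those of Klf2 (chr8:72318812-72319111, plus strand), Klf4 (chr4:55532426-55532725, minus strand), Klf6 (chr13:5861239-5861538, plus strand) and Klf7 (chr1:64121340-64121639, minus strand) belong to genes that fell together, and those of Klf9 (chr19:23140976-23141275, plus strand) and Klf15 (chr6:90462326-90462625, plus strand) to genes that rose. Capitals mark each GC box, GGGCGG, and each CACCC box, CACCC, on either strand. Where GC boxes overlap each other, as in Klf4, the joined stretch is in capitals.
Klf2: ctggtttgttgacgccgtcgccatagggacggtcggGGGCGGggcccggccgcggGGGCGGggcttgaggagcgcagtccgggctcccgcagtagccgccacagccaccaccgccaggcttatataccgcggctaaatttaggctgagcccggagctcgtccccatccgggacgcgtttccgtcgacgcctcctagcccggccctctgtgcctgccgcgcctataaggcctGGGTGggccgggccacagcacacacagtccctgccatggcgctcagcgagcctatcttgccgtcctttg
Klf4: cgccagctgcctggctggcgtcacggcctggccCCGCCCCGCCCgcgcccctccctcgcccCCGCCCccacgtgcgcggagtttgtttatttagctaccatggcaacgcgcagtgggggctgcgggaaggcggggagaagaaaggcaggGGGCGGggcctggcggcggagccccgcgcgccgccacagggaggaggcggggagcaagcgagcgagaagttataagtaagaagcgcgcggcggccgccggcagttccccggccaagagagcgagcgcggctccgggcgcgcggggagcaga
Klf6: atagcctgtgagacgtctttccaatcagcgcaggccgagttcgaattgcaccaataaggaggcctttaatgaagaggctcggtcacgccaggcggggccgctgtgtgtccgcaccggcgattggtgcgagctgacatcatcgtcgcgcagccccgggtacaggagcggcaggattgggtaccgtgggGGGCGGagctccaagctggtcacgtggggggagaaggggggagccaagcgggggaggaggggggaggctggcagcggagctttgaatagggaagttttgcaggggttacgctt
Klf7: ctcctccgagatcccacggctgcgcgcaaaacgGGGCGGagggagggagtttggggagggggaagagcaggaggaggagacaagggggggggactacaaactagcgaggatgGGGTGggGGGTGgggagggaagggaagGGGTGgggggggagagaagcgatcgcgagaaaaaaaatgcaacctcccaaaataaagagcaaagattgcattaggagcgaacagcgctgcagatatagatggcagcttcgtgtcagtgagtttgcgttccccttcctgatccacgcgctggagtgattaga
Klf9: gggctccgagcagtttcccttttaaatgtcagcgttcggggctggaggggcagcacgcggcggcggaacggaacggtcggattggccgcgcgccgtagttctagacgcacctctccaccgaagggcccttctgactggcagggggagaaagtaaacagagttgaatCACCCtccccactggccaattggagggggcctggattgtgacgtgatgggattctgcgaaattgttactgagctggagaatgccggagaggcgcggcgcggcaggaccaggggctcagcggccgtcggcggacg
Klf15: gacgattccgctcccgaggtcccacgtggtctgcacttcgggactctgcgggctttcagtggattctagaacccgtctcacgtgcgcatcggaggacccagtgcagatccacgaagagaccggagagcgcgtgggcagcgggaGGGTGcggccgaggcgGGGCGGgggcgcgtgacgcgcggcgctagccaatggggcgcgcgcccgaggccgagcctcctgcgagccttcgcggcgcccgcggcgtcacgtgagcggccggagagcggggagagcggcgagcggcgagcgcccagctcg

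Of the 10 members 8 matched the promoter table, all but Klf5 and Klf10. The GC box was present in 7 of these 8 promoters, against 35.7% of 32851 mouse promoters of the same length and 77.1% of the 11074 promoters at least as GC-rich as the member with the lowest GC content, 58.3%. The promoter of Klf9 was the exception. CACCC was present in 6 of 8, all but Klf4 and Klf6, against 57.5% of all promoters and 70.4% of the GC-rich ones. Among the printed promoters Klf4 held 4 GC boxes and Klf7 held 3 CACCC boxes. Of those not printed, Klf3 held more of both, 6 GC boxes and 5 CACCC boxes, and Klf13 held 3 GC boxes and 1 CACCC box. The cyclic AMP response element TGACGTCA was found in 0 of 8, against 1.79% of all promoters, and the CArG box of serum response factor in 0 of 8, against 1.63%. These matches describe letters in a window and not binding.

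The libraries held between 13554718 and 27013352 reads in 3′UTR entries, of which between 115709 and 820046 were labelled. The labelled share of the whole library was 2.71 to 3.68% at day −2 and 0.922 to 1.36% at the later days in DMSO, and 2.68 to 3.06% and 0.802 to 1.09% in ML-792. Counts are given below scaled to a common library of 18300638 reads with the normalization factors of the total counts, as normalized counts. The summed counts of 8 adipocyte markers were 22166 to 23622 in the DMSO libraries of day −2 and 666221 to 758551 at day 7, and those of 8 pre-adipocyte markers were 283871 to 345617 and 25595 to 38114. For Klf2 and Klf4, which endothelial cells express strongly, the sum of 4 endothelial markers was 0 to 20.5 in every library, and 3 of the 4 never reached 10 reads. In total counts replicate B was the lowest of its group in 8 of 8 conditions for Klf3, Klf5 and Klf13 and in 7 of 8 for Klf7 and Klf9.

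**Figure D1:**
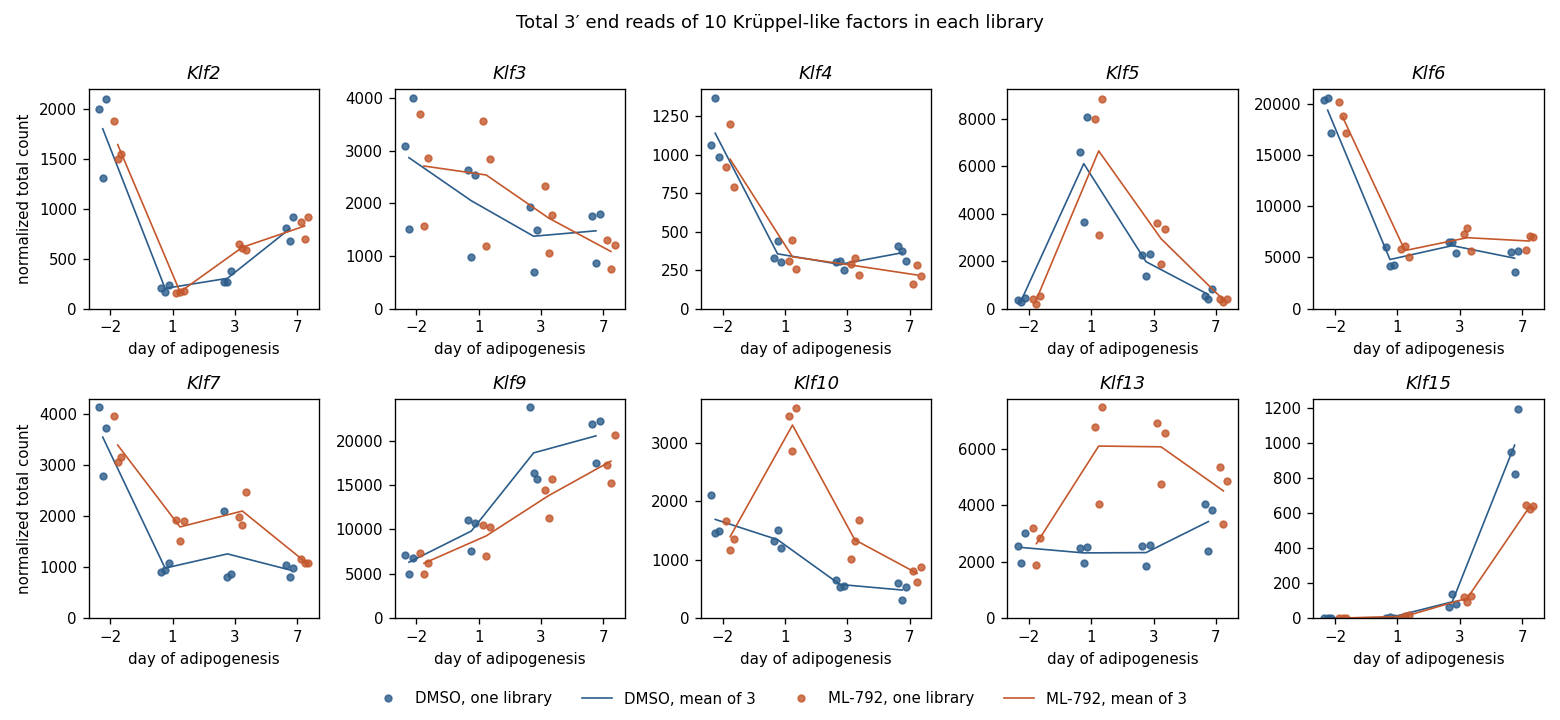
Normalized total count of each KLF (y axis, linear and starting at 0, its own scale in each panel) at days −2, 1, 3 and 7 in DMSO (blue) and ML-792 (orange). Each point is 1 library and the lines join the means of 3 libraries. Klf2, Klf4, Klf6 and Klf7 dropped after day −2, Klf5 peaked at day 1, Klf15 appeared at days 3 and 7, and the ML-792 libraries of Klf10 and Klf13 lay above the DMSO libraries at days 1 and 3.

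Total RNA of the KLFs was redistributed during differentiation in DMSO. Against day −2, edgeR's quasi-likelihood test with Benjamini-Hochberg adjustment over all entries called 5 of 10 members at day 1, 8 at day 3 and 7 at day 7 at an adjusted p under 0.01, and 8 at 1 or more days. Of all 13331 genes tested 16.8%, 36% and 38.3% were called at these days. Klf2, Klf4, Klf6 and Klf7 fell at all 3 later days, Klf10 fell at days 3 and 7, Klf9 and Klf15 rose at days 3 and 7, and Klf5 rose at days 1 and 3. Klf3 and Klf13 did not pass the test at any day. These fits carry no term for the replicate letter, and with the letter as a block all 10 members were called at 1 or more days. In these bulk samples fewer cells that make an RNA and less RNA per cell cannot be told apart.

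Among Klf2, Klf3 and Klf7, the genes that restrain differentiation, Klf2 fell most at days 1 and 3 and Klf7 at day 7. The 3′UTR of Klf2 lies at chr8:72320920-72321654 (plus strand, mm10). Its normalized total count was 1992, 1304 and 2097 in the 3 DMSO libraries of day −2, 210, 165 and 233 at day 1, 270, 262 and 377 at day 3, and 806, 677 and 913 at day 7. The groups of days −2, 1, 3 and 7 did not overlap, and the level was lowest at day 1 and recovered in part by day 7. The log2 fold change against day −2 was −3.15 ± 0.24 (SE, n = 3, edgeR, adjusted p = 2.52e-07) at day 1 and −1.17 ± 0.22 (adjusted p = 0.000444) at day 7, and the rise from day 3 to day 7 was 1.40 ± 0.23 (adjusted p = 0.000497). Without replicate A the last 2 values missed the threshold, with adjusted p of 0.0303 and 0.0498.

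Klf7, an inhibitor of adipogenesis (chr1:64029448-64035712, minus strand), had 4123, 2781 and 3713 counts at day −2, 905, 952 and 1083 at day 1, 2099, 815 and 860 at day 3, and 1035, 810 and 990 at day 7. All later libraries lay below those of day −2, and 1 library of day 3, A, stood above the rest. The fall was −1.85 ± 0.30 at day 1 (edgeR, adjusted p = 0.000324) and −1.90 ± 0.30 at day 7 (adjusted p = 8.97e-05). Without replicate B the adjusted p at days 1 and 3 was 0.0135 and 0.0288, and without replicate C it was 0.03 at day 3.

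Klf3, which recruits the corepressor CtBP (chr5:64829159-64832072, plus strand), had 3090, 1506 and 4001 counts at day −2 and 1767, 875 and 1791 at day 7. The groups overlapped, with replicate B the lowest library of each, and the difference at day 3 was −1.06 ± 0.44 (edgeR, adjusted p = 0.0658). Without replicate B it was −1.05 at day 3 and −0.99 at day 7, with adjusted p of 9e-05 and 0.000134. Klf10 (chr15:38294406-38295904, minus strand) had 2115, 1464 and 1500 counts at day −2, 1319, 1514 and 1206 at day 1, 650, 530 and 557 at day 3 and 604, 311 and 537 at day 7. It was still near its starting level 1 day after induction and fell between days 1 and 3 by 1.22 on the log2 scale (SE 0.23, edgeR, adjusted p = 0.000866), a step whose adjusted p was 0.0134 without replicate A and 0.0194 without C.

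Of the early activators, Klf4 and Klf6 were lower at day 1 than at day −2, while Klf5 was higher. The first libraries after induction are those of day 1, so levels in the first hours after induction were not measured. Klf4, which acts with Egr2 on Cebpb (chr4:55527137-55528124, minus strand), had 1064, 1365 and 988 counts at day −2, 328, 440 and 300 at day 1, 302, 307 and 253 at day 3 and 405, 375 and 308 at day 7. No library of the later days reached those of day −2, and the fall was −1.68 ± 0.20 at day 1 (edgeR, adjusted p = 2.37e-05) and −1.99 ± 0.21 at day 3 (adjusted p = 1.43e-06). Klf6, a repressor of the pre-adipocyte gene Dlk1 (chr13:5867284-5870393, plus strand), had 20358, 20550 and 17158 counts at day −2 and between 3584 and 6548 in the 9 later DMSO libraries. Its log2 fold changes were −2.01, −1.65 and −1.98 at days 1, 3 and 7, each with an SE of 0.21. Klf4 and Klf6 kept their calls at all 3 days under each alternative listed in the closing section.

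Klf5, which C/EBPβ and C/EBPδ induce and which activates Pparg (chr14:99313330-99313412, plus strand), had 374, 265 and 445 counts at day −2, 6603, 3661 and 8065 at day 1, 2254, 1360 and 2318 at day 3, and 544, 426 and 816 at day 7. Each step was larger than the spread of the libraries except the return at day 7, where the groups of days −2 and 7 overlapped. The log2 fold change was 4.08 ± 0.35 at day 1 (edgeR, adjusted p = 7.39e-07), and the falls from day 1 to 3 and from day 3 to 7 were −1.63 ± 0.31 (adjusted p = 0.000946) and −1.73 ± 0.32 (adjusted p = 0.00136). Without replicate A these falls had adjusted p of 0.0295 and 0.0779, without replicate C the former had 0.0111, and without replicate B the level at day 7 lay above day −2 by 0.73 (adjusted p = 0.00596).

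The factors of the later programme rose. Klf9, which binds the Pparg2 promoter and is induced by glucocorticoid (chr19:23164913-23166911, plus strand), had 7161, 5031 and 6735 counts at day −2, 11113, 7619 and 10719 at day 1, 23772, 16380 and 15707 at day 3, and 21890, 17503 and 22222 at day 7. Its day 1 libraries were already above those of day −2 (log2 fold change 0.64 ± 0.22, edgeR, adjusted p = 0.0443, not called, or 0.0086 without replicate B), and the rise reached 1.56 ± 0.22 by day 3 (adjusted p = 3.17e-05), with 1.70 ± 0.22 by day 7 (adjusted p = 1.23e-05). The step from day 1 to day 3 was 0.92 ± 0.22 (adjusted p = 0.00424), with an adjusted p of 0.0966 without replicate A and 0.0277 without C.

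Klf15, the activator of Slc2a4 (chr6:90474289-90475235, plus strand), was close to absent before induction, with 5 reads over the 3 DMSO libraries of day −2 and 13 over those of day 1. It then stood at 62.4, 137 and 82.2 normalized counts at day 3 and 946, 824 and 1191 at day 7. The 2671 reads of day 7 gave a ratio to day −2 of 681 (95% interval 291 to 2098, counting error only), and the fitted log2 fold change was 9.30 ± 0.45 (edgeR, adjusted p = 3.9e-10). The rise continued at each step, by 4.57 ± 0.40 from day 1 to 3 and by 3.40 ± 0.30 from day 3 to 7. Klf13 (chr7:63886351-63891507, minus strand) had 2547, 1948 and 3031 counts at day −2, 2480, 1944 and 2524 at day 1, 2556, 1835 and 2589 at day 3 and 4048, 2387 and 3844 at day 7. Its groups overlapped at all days, and the difference of day 7 was 0.45 ± 0.23 (edgeR, adjusted p = 0.126), or 0.50 with an adjusted p of 0.00401 without replicate B.

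Between neighbouring days, 4 of 10 members were called from day 1 to 3, where 23.2% of all genes were, and 3 from day 3 to 7, where 10.9% were. Klf9 and Klf15 rose and Klf5 and Klf10 fell in the former step, and Klf2 and Klf15 rose and Klf5 fell in the latter. In place of these 7 calls there were 2 without replicate A, 4 without replicate C and 9 without replicate B.

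**Figure D2:**
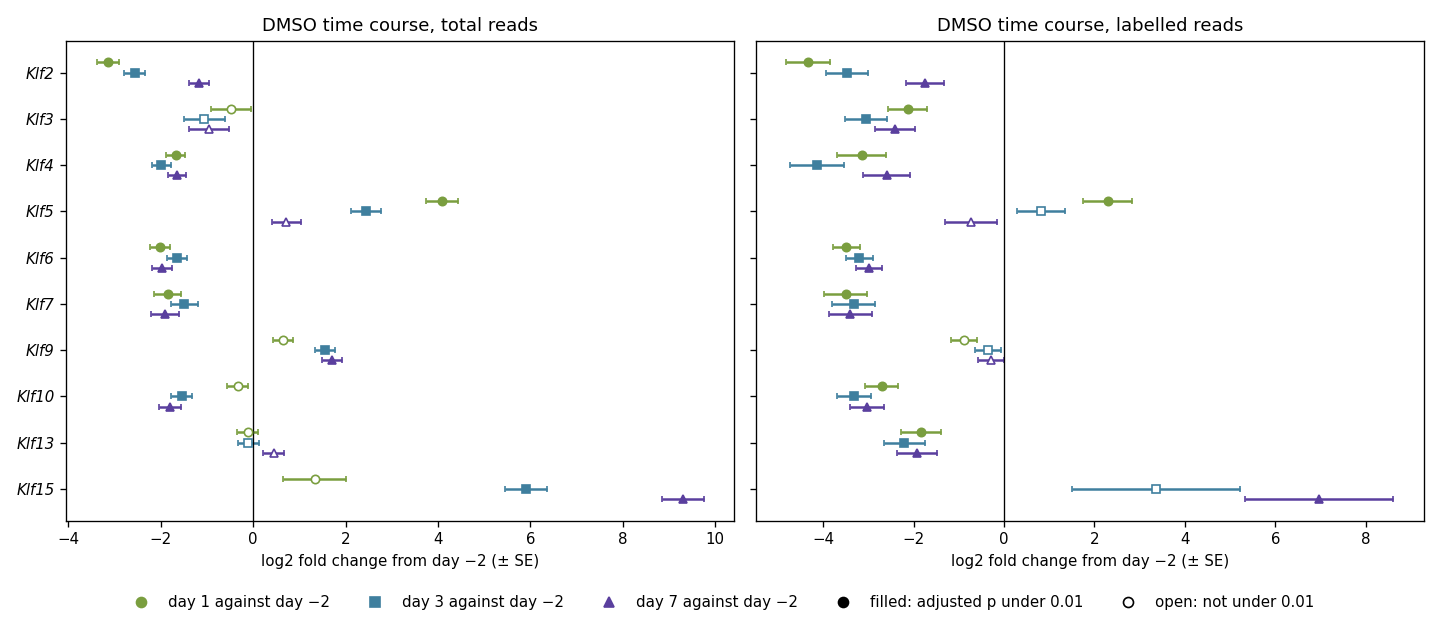
Log2 fold change from day −2 (x axis, ± SE) of each KLF in the DMSO libraries, for total reads (left) and labelled reads (right), at days 1 (circles), 3 (squares) and 7 (triangles), 3 libraries a group. Filled symbols passed an adjusted p of 0.01. Klf9 lies above 0 in total reads and below 0 in labelled reads at each day, and Klf15 has no labelled point at day 1, where it had no labelled reads.

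Labelled reads, which count RNA made during the 45 min pulse, fell for more members than total reads did. Against day −2, edgeR called 8 of 10 members at day 1, 7 at day 3 and 8 at day 7, and 9 at 1 or more days, where 19.5%, 34.3% and 30% of the 6434 genes tested were called. The median log2 fold change of all those genes was −1.20, −1.64 and −1.47, so the values of the members are to be read against these shifts. Klf2, Klf3, Klf4, Klf6, Klf7, Klf10 and Klf13 fell at all 3 days, Klf5 rose at day 1, and Klf15 rose at day 7. Klf9 was not called at any day, though without replicate B its fall at day 1 was (−0.94, adjusted p = 0.0004).

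Part of these calls rested on the scaling to all reads. When labelled counts were scaled to the labelled reads of each library instead, Klf6, Klf7 and Klf10 were still called lower at all 3 days, at log2 fold changes between −2.23 and −1.42. Klf13 was then called at none of the 3 days (−0.55, −0.67 and −0.51, edgeR, adjusted p = 0.477, 0.295 and 0.468). Klf3 lost its calls at days 1 and 7 (−0.82 and −0.95, adjusted p = 0.189 and 0.09), as did Klf2 and Klf4 at day 7 (−0.30 and −1.19, adjusted p = 0.68 and 0.109). Klf5 was called higher at day 3 as well (2.40, adjusted p = 0.000175).

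The labelled counts of Klf6 were 3890, 3252 and 3146 at day −2 and between 256 and 508 in the 9 later DMSO libraries. Its log2 fold change at day 1 was −3.49 ± 0.30 (edgeR, adjusted p = 1.36e-13), against a median of −1.20 over all genes. Klf7 went from 838, 419 and 662 counts to 55.2, 36.4 and 76.7 at day 1, a change of −3.51 ± 0.47 (adjusted p = 9.07e-07), and Klf4 from 92.5, 93 and 81.7 to 12, 3.64 and 14. For Klf6, Klf7 and Klf4 no later library reached a library of day −2.

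Klf2 had 265, 157 and 264 labelled counts at day −2, 3.68, 8.2 and 21.4 at day 1, 13.1, 26.7 and 22 at day 3, and 65.4, 79.3 and 58.2 at day 7. The low point at day 1 and the partial return at day 7 were the same as in its total counts, with log2 fold changes of −4.33 ± 0.48 at day 1 (edgeR, adjusted p = 4.67e-10) and −1.76 ± 0.42 at day 7 (adjusted p = 0.000677, or 0.0249 without replicate A and 0.024 without C). The day 7 value became −0.30 when scaled to labelled reads and was not called. Klf10 gave another picture from its total counts. It had 578, 381 and 436 labelled counts at day −2 and 79.1, 70.1 and 64.3 at day 1, a fall of −2.71 ± 0.37 (adjusted p = 1.11e-07) on a day when its total count had changed by −0.33 ± 0.23 (adjusted p = 0.336). Klf13 fell in labelled reads as well, from 153, 95.7 and 113 to 40.5, 31.9 and 28.9 at day 1 (−1.83 ± 0.45, adjusted p = 0.00133, or 0.0414 without replicate A and 0.026 without C), with total counts that overlapped at all days. Scaled to labelled reads this difference was −0.55 and not called.

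Klf9 had 1168, 656 and 956 labelled counts at day −2, 538, 404 and 572 at day 1, 944, 677 and 568 at day 3, and 758, 712 and 794 at day 7. Its labelled level at days 3 and 7 overlapped that of day −2, with log2 fold changes of −0.35 ± 0.29 and −0.30 ± 0.29 (edgeR, adjusted p = 0.3 and 0.384) while its total count rose. Relative to the median of all genes these values lie above and not below, and when labelled counts were scaled to the labelled reads of each library they became 1.20 and 1.16, both called. Klf5 had 31.9, 1.79 and 31.1 labelled counts at day −2 and 122, 66.5 and 130 at day 1, a rise of 2.29 ± 0.54 (edgeR, adjusted p = 0.00113), with an adjusted p of 0.0144 without replicate A and 0.0129 without C.

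Klf15 had 0 labelled reads in the 6 DMSO libraries of days −2 and 1, 3 over those of day 3, and 17, 19 and 6 at day 7. The 42 reads of day 7 were 17.8-fold higher than day −2, taking 3 reads over the group as the level that a count of 0 allows. The lower 95% bound of the ratio was 13.9 (counting error only). The edgeR test gave an adjusted p of 0.00065, or 0.0213 without replicate A. No member was called in labelled reads between neighbouring days, where edgeR called 3.48% of genes from day 1 to 3 and 0.326% from day 3 to 7. At an unadjusted p under 0.05 these steps held 2 and 4 members, and DESeq2 called 0 in both.

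**Figure D3:**
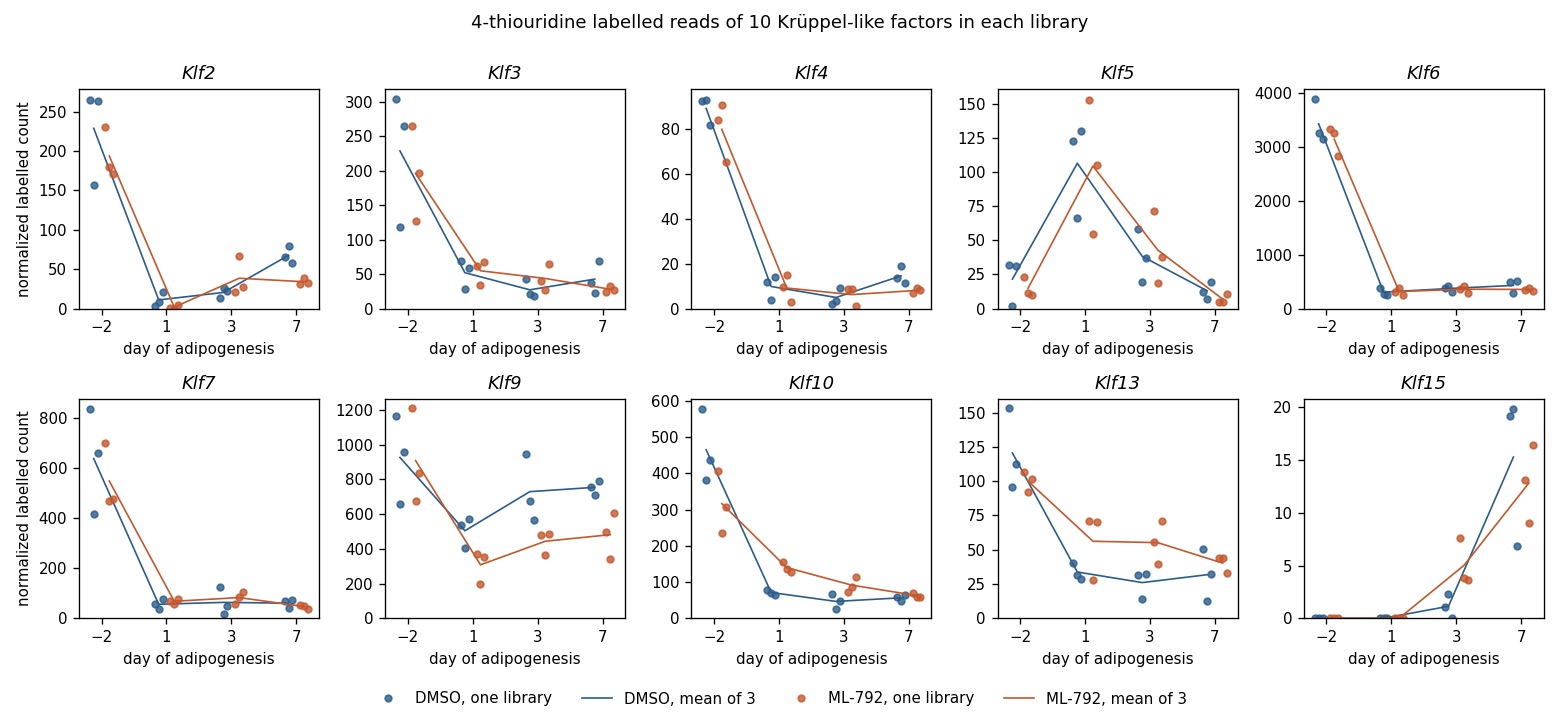
Normalized labelled count of each KLF (y axis, linear and starting at 0, its own scale in each panel) at days −2, 1, 3 and 7 in DMSO (blue) and ML-792 (orange). Each point is 1 library and the lines join the means of 3. In most panels the day −2 libraries stand apart from all later ones, Klf5 and Klf15 are highest at days 1 and 7, and the ML-792 libraries of Klf9 lie below the DMSO libraries at days 1, 3 and 7.

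The labelled share, the labelled reads of a gene as a percent of its total reads, was high for most KLFs. At day −2 in DMSO the share of Klf10 was 27.4, 26 and 29.1%, higher than that of 99.9% of the 8921 genes with at least 100 reads, whose median was 2.37%. Klf6 with a mean of 17.8%, Klf7 with 17.7%, Klf9 with 14.5% and Klf2 with 12.7% lay above 98.8%, 98.8%, 98% and 97.2% of those genes. Klf3, Klf4, Klf5 and Klf13 had mean shares of 8.1%, 7.92%, 5.4% and 4.88%, above 92.2%, 91.9%, 83.3% and 80.1% of them. All 9 members with enough reads thus lay in the upper part of the distribution. A read can carry a conversion only where it holds a T, and the 3′UTR entry of Klf5, 83 bases long, is 18.1% T, against 25.8 to 33% in the other members.

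At day 7 the shares were lower, as in the whole library. Klf10 had 9.53, 15.4 and 11.9%, above 99.5% of 8225 genes, and Klf2 and Klf6 had means of 8.74% and 8.7%, each above 98.9% of them. Klf13 had dropped furthest in rank among the 9 members, with 1.25, 0.524 and 0.832%, a mean above 49.8% of genes where it had been above 80.1% at day −2. Klf15 had a mean of 1.67% at day 7, above 79.2% of genes. At day 3 its 3 DMSO libraries held 246 reads in all, 3 of them labelled. In a model of labelled and unlabelled counts the mean of days 1, 3 and 7 was set against day −2 relative to the share of the whole library, and edgeR called 0 of 10 members at an adjusted p under 0.01, where 3.12% of 6434 genes were called. At an unadjusted p under 0.05 the model held 3 members, Klf9 (−0.40 ± 0.14), Klf10 (−0.59 ± 0.24) and Klf13 (−0.63 ± 0.28), and no other tool was run on it. On the scale of all reads, without setting the members against the falling share of the library, 7 of 10 were called, all downward.

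**Figure D4:**
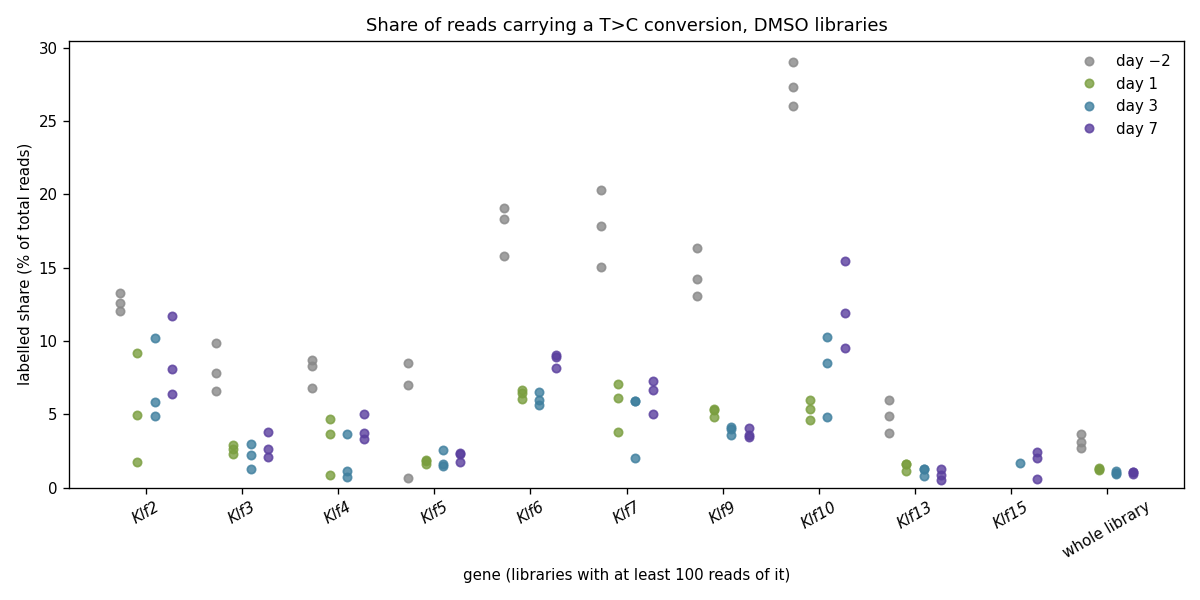
Labelled share (y axis, percent of total reads with at least 1 T>C conversion) of each KLF and of the whole library in the DMSO libraries of days −2, 1, 3 and 7. Each point is 1 library with at least 100 reads of the gene. Klf15 thus has points from day 3 on, though not for every library of day 3, where 3 libraries held 246 of its reads. The shares at day −2 lie above those of the later days for most members and for the whole library, and Klf10 is highest at day −2.

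With ML-792 the total counts of Klf7, Klf10 and Klf13 were higher than in DMSO at days 1 and 3, and Klf2 was higher at day 3. At day −2 edgeR called 0 of 10 members at an adjusted p under 0.1, 0% of all genes were called, 0 members had an unadjusted p under 0.05 and DESeq2 called 0. At day 1, 4 members were called, all higher with ML-792, where 8.03% of genes were called. At day 3, 4 were called, all higher (15.4% of genes), and at day 7, 2 were called, Klf10 higher and Klf4 lower (11.6% of genes). In place of these 10 calls there were 4 without replicate A, 4 without replicate C and 13 without replicate B. With the replicate letter as a block there were 18. The marker sums moved with ML-792 too. That of the 8 pre-adipocyte markers was 119265 to 179419 at day 1 against 177345 to 199767 in DMSO, 36161 to 45093 at day 3 against 27570 to 34877, and 45121 to 64175 at day 7 against 25595 to 38114, so it stood above DMSO without overlap at days 3 and 7. That of the 8 adipocyte markers overlapped DMSO at day 1 (34025 to 40442 against 39843 to 42546) and day 3 (419300 to 483251 against 369463 to 518437) and lay above it at day 7 (871746 to 940967). Of the pre-adipocyte markers edgeR called 2 higher and 2 lower at day 1, 4 higher and 0 lower at day 3, and 4 higher and 1 lower at day 7. Of the adipocyte markers it called 3 higher and 0 lower at day 1, 1 higher and 4 lower at day 3, and 3 higher and 0 lower at day 7. The part of either cell state in the KLF results was not tested.

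Klf10 stood apart from DMSO at all 3 later days. Its normalized total count with ML-792 was 3462, 2870 and 3594 at day 1, 1012, 1330 and 1690 at day 3 and 809, 624 and 873 at day 7, against the DMSO values of 1319, 1514 and 1206, then 650, 530 and 557, then 604, 311 and 537. The groups did not overlap at any of these days, while at day −2 they did, with 1657, 1175 and 1358 counts in ML-792. The log2 fold change was 1.30 ± 0.22 at day 1 (edgeR, adjusted p = 0.000539), 1.21 ± 0.23 at day 3 (adjusted p = 0.000592) and, by day 7, 0.67 ± 0.22 (adjusted p = 0.0789). The calls of days 1 and 3 held under each alternative, and that of day 7 was lost without each replicate in turn (adjusted p of 0.186, 0.111 and 0.424 without A, B and C). All 3 ML-792 libraries of day 1 were also above the 3 ML-792 libraries of day −2, a step that was not tested.

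Klf13 was called at no day of the DMSO time course in the main fit. With ML-792 it was 6776, 4037 and 7493 at day 1 and 6909, 4742 and 6573 at day 3, above every DMSO library of those days. The log2 fold changes were 1.40 ± 0.26 (edgeR, adjusted p = 0.00127) and 1.38 ± 0.26 (adjusted p = 0.000709), and at day 7 the groups overlapped at 5344, 3350 and 4849 against 4048, 2387 and 3844 (0.40 ± 0.26, adjusted p = 0.464, or 0.0597 without replicate B). The call of day 1 was lost without replicate A (adjusted p = 0.12) and without C (adjusted p = 0.111), and that of day 3 held without each replicate in turn. Klf7 had 1929, 1518 and 1908 counts with ML-792 at day 1 against 905, 952 and 1083, a difference of 0.86 ± 0.25 (adjusted p = 0.0452), which was lost without A, B or C in turn, with adjusted p of 0.17, 0.133 and 0.288. At day 3 its groups overlapped, since DMSO replicate A lay within the ML-792 libraries, and the call (0.74 ± 0.25, adjusted p = 0.0675) had an adjusted p of 0.296 without B and 0.716 without C.

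Klf2 differed at day 3 alone. It had 643, 608 and 588 counts with ML-792 against 270, 262 and 377 in DMSO, with no overlap and a log2 fold change of 1.02 ± 0.19 (edgeR, adjusted p = 0.000661), or 0.90 with an adjusted p of 0.121 without replicate A. At day 1 it was 160, 167 and 173 against 210, 165 and 233, and at day 7 it was 867, 695 and 916 against 806, 677 and 913. The groups overlapped on both of these days. Klf4 was lower at day 7, with 163, 282 and 210 counts against 405, 375 and 308 (−0.73 ± 0.23, adjusted p = 0.0621), a call lost without replicate A (−0.47, adjusted p = 0.654), without C (adjusted p = 0.21) and with the 6 libraries of that day alone (adjusted p = 0.11).

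Klf15 was called at day 1, on few reads, 33 over the 3 ML-792 libraries against 13 over the DMSO libraries, a ratio of 3.01 (95% interval 1.54 to 6.23, counting error only). The groups overlapped, and the adjusted p of 0.071 became 0.169 without replicate A, 0.565 without C and 0.531 with the 6 libraries of the day alone. At day 7, where Klf15 was well expressed, it had 643, 623 and 641 counts with ML-792 against 946, 824 and 1191. The groups did not overlap there, and the difference of −0.63 ± 0.26 was not called (edgeR, adjusted p = 0.179, 95% interval −1.15 to −0.12 on the log2 scale), or −0.73 with an adjusted p of 0.0612 without replicate B, where day 3 was called too (0.79, adjusted p = 0.0714). Klf5 at day 7 was 407, 289 and 422 against 544, 426 and 816, also without overlap and not called (−0.67 ± 0.40, adjusted p = 0.417), and without replicate B it was called at day 7 (−0.71, adjusted p = 0.0107) as well as at day 3 (0.61, adjusted p = 0.0155). Klf6 and Klf3 were called at no day in the main fit. Under the alternatives of the closing section Klf6 was called under 1 at day 7. Klf3 was called under 2 at day 7, among them without replicate B (−0.51, edgeR, adjusted p = 0.0734), and under 1 at day 3. Klf9 at day 3 lay below DMSO in all libraries without a call (−0.43 ± 0.21, edgeR, adjusted p = 0.26), and was called under 1 alternative.

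Whether the effect of ML-792 depended on the day was tested by the interaction of day and treatment. It was called for 4 of 10 members, Klf2 (edgeR, adjusted p = 0.00818), Klf10 (adjusted p = 0.00459), Klf13 (adjusted p = 0.0292) and Klf15 (adjusted p = 0.0602), where 11.9% of genes were called. DESeq2 called 4 members too, and no member was called by edgeR without replicate A (adjusted p of these 4 from 0.134 to 0.533) or without replicate C (0.118 to 0.753), while 6 were without B.

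**Figure D5:**
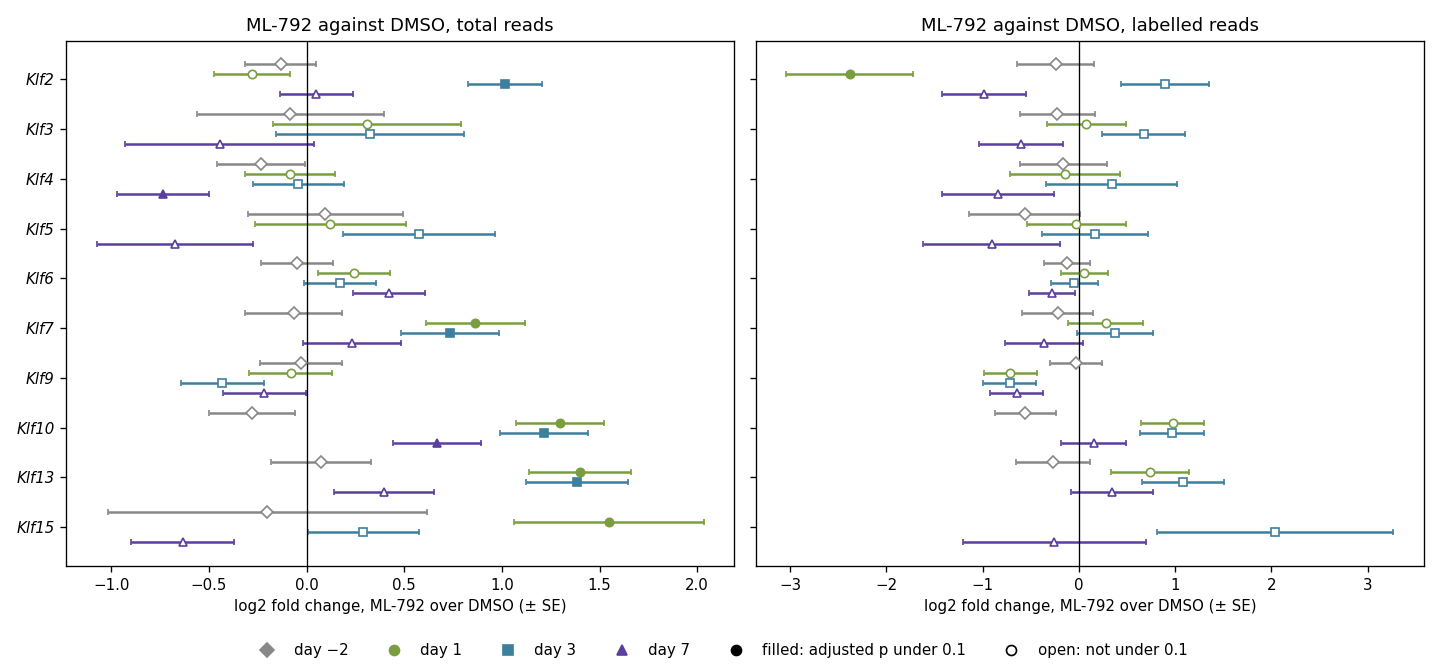
Log2 fold change of ML-792 over DMSO (x axis, ± SE) of each KLF at days −2 (diamonds), 1 (circles), 3 (squares) and 7 (triangles), for total reads (left) and labelled reads (right), 3 libraries a group. Filled symbols passed an adjusted p of 0.1. In total reads Klf10 and Klf13 lie between 1.21 and 1.40 at days 1 and 3, and in labelled reads only Klf2 at day 1 passed. Klf15 has no labelled point at days −2 and 1, where it had no labelled reads.

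In labelled reads ML-792 gave 1 call among the KLFs. At day 1, 1 of 10 members was called, where edgeR called 1.06% of genes, and 0 at days −2, 3 and 7, where 0%, 1.12% and 0.964% of genes were called. At an unadjusted p under 0.05 there were 0, 3, 3 and 2 members at days −2, 1, 3 and 7, and DESeq2 called 0, 2, 1 and 0. The median log2 fold change of all genes was −0.18, −0.31, −0.07 and −0.37 at these days. The interaction of day and treatment was called for 0 members (0.28% of genes), with 2 at an unadjusted p under 0.05 and 2 called by DESeq2, Klf2 and Klf10.

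The called member was Klf2 at day 1, with 1, 0 and 5 labelled reads in the ML-792 libraries against 4, 9 and 26 in DMSO, a ratio of 0.182 (95% interval 0.0631 to 0.434, counting error only). The libraries overlapped, the fitted log2 fold change was −2.38 ± 0.66 (edgeR, adjusted p = 0.0749), and the call was lost without each replicate in turn (adjusted p of 0.21, 0.183 and 0.301 without A, B and C). Klf10 had 155, 137 and 128 labelled counts with ML-792 at day 1 and 72.8, 87.4 and 115 at day 3, against 79.1, 70.1 and 64.3, then 66.7, 25.5 and 47.4 in DMSO. The groups did not overlap on either day, with log2 fold changes of 0.98 ± 0.32 and 0.97 ± 0.34 (edgeR, adjusted p = 0.174 and 0.227, DESeq2, adjusted p = 0.0394 and 0.0987), so the call depended on the tool. Klf13 at day 3 had 55.4, 39.3 and 70.7 against 31.7, 13.9 and 32.4, without overlap and without a call (1.08 ± 0.42, edgeR, adjusted p = 0.318).

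Klf9 was lower in labelled reads at each later day. It had 371, 199 and 354 with ML-792 at day 1, 482, 367 and 484 at day 3 and 497, 342 and 606 at day 7, each below every DMSO library of its day, and at day −2 the groups overlapped at 1214, 675 and 839 against 1168, 656 and 956. The log2 fold changes were −0.71 ± 0.28, −0.72 ± 0.28 and −0.65 ± 0.28 (edgeR, adjusted p = 0.262, 0.301 and 0.339), none called. Each was called under 1 of the alternatives in the closing section. The total counts differed by less. The labelled share of Klf9 was 3.53, 2.82 and 3.45% with ML-792 at day 1 against 4.84, 5.3 and 5.33% in DMSO. Averaged over days and relative to the share of the whole library, ML-792 changed the share of 0 of 10 members by edgeR (0.0466% of genes were called), with 1 member, Klf2, at an unadjusted p under 0.05.

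Genes that KLFs are known to regulate in fat cells were read in DMSO, first in total reads. Of 10 such genes tested, 4 rose and 1 fell at day 1, and 6 rose and 2 fell at day 3 and again at day 7. Of all genes 16.8%, 36% and 38.3% were called at these days. The medians of the list were 0.69, 2.21 and 2.40 on the log2 scale against 0.00354, 0.00392 and −0.0153 over all genes. Pparg, the target of Klf2, Klf5 and Klf9, rose by 1.90 ± 0.44 at day 1 (edgeR, adjusted p = 0.0057) and 3.73 ± 0.47 at day 7, and Cebpb, the target of Klf4, by 1.16 ± 0.26 at day 1. Slc2a4, the target of Klf15, rose by 7.19 ± 0.26 at day 3 and 9.34 ± 0.27 at day 7. Dlk1, which Klf6 represses, fell by 3.96 on the log2 scale at day 3 while Klf6 itself was low. Ctgf, also on the list, fell at each day (−5.43 ± 0.41, −8.07 ± 0.49 and −7.54 ± 0.47 at days 1, 3 and 7). Fabp4 and Dlk1 are also among the adipocyte and pre-adipocyte markers. In labelled reads 9 of the list were tested. Of these 1 rose and 3 fell at day 1, 4 and 5 at day 3, and 4 and 4 at day 7 (19.5%, 34.3% and 30% of genes called). Their medians were −0.83, −1.35 and −0.78, against −1.20, −1.64 and −1.47 over all genes. Labelled Cebpb was −0.83 at day 1, not called, and called lower at days 3 and 7 (−1.77 and −1.68).

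With ML-792, 1 of the 10 genes that KLFs regulate was higher in total reads and 1 lower at day 1, 0 and 2 at day 3, and 2 and 2 at day 7. Of all genes 8.03%, 15.4% and 11.6% were called at these days. Slc2a4 was lower by −1.68 ± 0.25 at day 3 (edgeR, adjusted p = 3.7e-05) and −1.44 ± 0.24 at day 7 (adjusted p = 0.00028), at a mean of 1138 normalized counts against 3084 in DMSO. Klf15, measured in the same day 7 libraries, differed by −0.63 ± 0.26 and was not called. Cebpd, a C/EBP gene upstream of Klf5, was lower at day 1 (−0.86 ± 0.17, adjusted p = 0.0021) and day 3 and higher at day 7 (0.49 ± 0.17, adjusted p = 0.089), and Pparg, Cebpa and Cebpb were called at no day.

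Other genes of the family and its partners were read in total reads against the 16.8%, 36% and 38.3% of all genes called at days 1, 3 and 7. Of 8 other KLF genes listed 5 were tested, and against day −2 edgeR called 0 at day 1, Klf12 lower at day 3 (−1.43 ± 0.24), and Klf12 lower (−1.17 ± 0.24) and Klf1, the erythroid factor, higher (2.68 ± 0.67) at day 7. Of 9 SP genes, which bind the same boxes, 4 were tested, Sp1, Sp2, Sp3 and Sp4, and 0 were called against day −2 in total reads. In labelled reads Sp1 was called lower at days 1 and 3 (−1.91 and −1.71), and Sp4, Klf12 and Klf16 at day 3. Of all genes 19.5% and 34.3% were called in labelled reads at these days. ML-792 gave 0 calls in either list at days 1, 3 and 7. Among 15 cofactors and ubiquitin ligases of KLFs, 0 rose and 1 fell in total reads at day 1, 1 rose and 3 fell at day 3, and 1 rose and 2 fell at day 7. Ctbp2, the corepressor that Klf3 binds, fell at day 3 (−0.97 ± 0.25) and day 7 (−0.89 ± 0.25), and Fhl3, a coregulator of Klf3, fell at all 3 days and was the only gene of the list called with ML-792 at any of the 4 days, higher at day 7 (0.98 ± 0.25, adjusted p = 0.017).

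Several members respond to serum and growth factors as immediate early genes do, so a list of 16 such genes was set beside them. In total reads 11 of these fell and 1 rose at day 1, 9 fell and 1 rose at day 3, and 13 fell at day 7, with medians of −1.94, −1.08 and −2.43. Of all genes 16.8%, 36% and 38.3% were called at these days. The first hours after induction were not measured for this list either. Egr2, the partner of Klf4, fell by 2.76 on the log2 scale (SE 0.25) at day 1. Ier3 and Ankrd1 were the genes whose total counts over the 24 libraries ran most closely with Klf6, with Pearson's r of 0.956 and 0.951 on the log2 scale. With ML-792, 1 of the 16 was higher and 3 lower at day 1, 0 and 7 at day 3, and 5 and 3 at day 7. The shares of all genes called were 8.03%, 15.4% and 11.6%. A list of 10 genes that glucocorticoid raises in many cells, the class to which Klf9 and Klf15 belong, was read in total counts in DMSO. Against day −2, 5 rose and 1 fell at day 1, 5 rose and 0 fell at day 3 and 5 rose and 1 fell at day 7. The shares of all genes called were again 16.8%, 36% and 38.3%. Among those that rose was Fkbp5 (3.56 ± 0.19 at day 1 and 4.42 ± 0.20 at day 7). Sgk1 fell at day 1 (−1.58 ± 0.19) and Dusp1 at day 7 (−1.43 ± 0.18). In labelled reads 3 of the list rose and 4 fell at day 1, 2 and 6 at day 3, and 4 and 5 at day 7. Of all genes 19.5%, 34.3% and 30% were called in labelled reads.

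For the other members the 2 genes with the closest pattern over the 24 libraries were Anxa5 and Cndp2 for Klf2 (r of 0.963 and 0.943), S100pbp and Tjap1 for Klf3 (0.926 and 0.925), Spred1 and Tcea3 for Klf4 (0.954 and 0.952), and Ilf2 and Igfbp4 for Klf5 (both 0.956). They were Aldh1a3 and Slc40a1 for Klf7 (0.923 and 0.922), Efna5 and Prkg2 for Klf10 (0.948 and 0.94), Sumo3 and Ly6e for Klf13 (0.933 and 0.921), and 2010003K11Rik and Pnpla3 for Klf15 (0.983 and 0.979). For Klf9 the closest gene was Cox7a2 (0.959). Within the family the closest pair was Klf9 and Klf15 (r = 0.88), then Klf4 and Klf6 (0.846) and Klf6 and Klf7 (0.828), and the most opposed was Klf2 and Klf5 (−0.851). These values describe libraries that share days and treatments.

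The 3′UTR entries of 8 members, all but Klf5 and Klf10, were searched for AU-rich elements, which shorten the life of many early-response RNAs. The pentamer ATTTA occurred 18 times in Klf7, 7 times in Klf6, 5 times in each of Klf3 and Klf9, 3 times in Klf13, 2 times in Klf15 and 1 time in each of Klf2 and Klf4. Against entries of like length Klf7 had more ATTTA than 92% and Klf13 more than 14.9%. The nonamer TTATTTATT was present in 0 of 8 and in 7.48% of 13321 other genes. Overlapping entries of the same gene were not separate measurements, since the next entry held 98.4% of the reads of the one used for Klf3, 74.7% for Klf10 and 13.2% for Klf7.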

How the data were processed

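Total and labelled read counts per 3′UTR entry were deposited as raw counts. The authors mapped the QuantSeq 3′ end reads to mm10 with SlamDunk over RefSeq 3′UTRs and counted a read with at least 1 T>C conversion as labelled, with reads demultiplexed by bcl2fastq 2.17.1.14 per the labels. In each file 6 library columns match no sample and were not used.

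Groups were taken from the sample titles, in which the day −2 cultures are marked by a 2 without sign. Replicates are described as biological, yet nothing in the labels ties a letter to a culture batch, so p-values measure the spread between these libraries. Entries were kept by edgeR's filterByExpr (minimum count 10, minimum total 15). Counts were tested with edgeR 4.0.16 in R 4.3.3 (robust quasi-likelihood fits, TMM factors of the total counts also for labelled counts, Benjamini-Hochberg over all entries), in the 12 DMSO libraries for days (adjusted p under 0.01) and in all 24 for ML-792 (under 0.1). Normalized counts rescale each library to the same effective size (TMM), the mean of 18300638 reads. Labelled shares were tested in a model of labelled and unlabelled counts with a term for each library. Percentages of genes called count the entry with the highest mean count of each gene. Alternatives were DESeq2 1.42.0, no filter, leaving out each replicate letter, the 6 libraries of a day alone, the letter as a block, labelled counts scaled by labelled reads, and background conversions subtracted (0.177%, the lowest percentile of gene shares). The edgeR fits for days, for ML-792 and for the labelled share over days were run on simulated counts with known changes. The other steps were not. The T content of all 13331 entries read from the mouse genome equalled the deposited number, which checks build and strand. Intervals of ratios of read sums cover counting error only, and that of the Klf15 log2 fold change at day 7 was taken from the edgeR SE. The members and gene lists were chosen with earlier results of these data known. The named genes are all 10 members, the 2 genes closest to each by Pearson's r, and genes of the lists. Klf5 and Klf10 were not searched for motifs. Python 3.11.15, pandas 2.3.3 and matplotlib 3.10.9 read sequences and drew the plots. One gene that the rule for the closest patterns named for Klf9 is not reported here.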

Additional observations from a re-analysis of the deposited data

Results flagged for a closer look

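The effect of ML-792 on total counts differed between days for 4 KLFs by the interaction of day and treatment (edgeR). For Klf10 (adjusted p = 0.00459) the log2 fold changes at days −2, 1, 3 and 7 were −0.28, 1.30, 1.21 and 0.67. For Klf2 (adjusted p = 0.00818) they were −0.13, −0.28, 1.02 and 0.05, so day 3 alone stood out. For Klf13 (adjusted p = 0.0292) they were 0.08, 1.40, 1.38 and 0.40. For Klf15 (adjusted p = 0.0602) they were −0.20, 1.55, 0.29 and −0.63, with few reads at days −2 and 1.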

How the results depend on the processing

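Of the members called at 1 or more days of the DMSO time course, 8 in total and 9 in labelled reads, the number stayed within 1.5 times under all alternatives (8 to 10 and 7 to 10). Without 1 replicate letter the 7 total-read calls between neighbouring days ranged from 2 to 9, the 10 calls of ML-792 from 4 to 13, the 4 interaction calls from 0 to 6, and the 1 labelled call of ML-792 was 0 each time. These fits have fewer samples. With the letter as a replicate block the counts were 18 total and 6 labelled calls of ML-792, 8 total and 2 labelled interaction calls and 1 labelled call between neighbouring days. All 10 members were then called at 1 or more days in total reads, Klf3 among them at days 3 and 7 (−1.07 and −0.92, adjusted p = 1.26e-05 and 4.88e-05). The labels do not say whether letters pair the libraries, and the main fits carry no term for the letter. In total reads the mean correlation of same-letter deviations was 0.214, against −0.105 for different letters. The lowest same-letter value was −0.126, with 71 of 84 pairs over 0.1, and 23 of 24 libraries were closest to their own letter. DESeq2 gave 3 labelled calls of ML-792 and 2 labelled interaction calls, and no filter on low counts gave 1 of the latter. The labelled calls of ML-792 were 0 with the 6 libraries of a day alone, 0 with background conversions subtracted and 2 when scaled by labelled reads. Scaling to labelled reads turned Klf9 from −0.35 to 1.20 at day 3 and from −0.30 to 1.16 at day 7. Library sizes of all reads raised the labelled share calls from 0 to 7 and turned Klf5 from 0.04 to −1.48 and Klf6 from 0.02 to −1.53, since the members were then not set against the falling share of the library. Results for single members were counted once per comparison and alternative, and only for comparisons called in at least 1 fit. Of these, 705 kept their direction and side of the threshold, 52 were lost, 53 were gained and 4 reversed. Labelled reads are few, down to 0 for Klf2 and Klf15, and limit those values.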
